A study of Drosophila melanogaster with 4 samples.

Results

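The regions described here are places on the X chromosome of Drosophila melanogaster where dRING was found enriched in both of 2 chromatin immunoprecipitation and sequencing (ChIP-seq) libraries. They were chosen from the deposited list of enriched regions of the whole series: a region on X was kept where at least 1 bp of it was overlapped by an enriched interval, called a cluster here, of replicate 1 and by a cluster of replicate 2. This gave 498 of the 1623 X regions, out of 7386 regions on the 6 chromosome arms. The libraries came from wild-type Oregon-R embryos of 14 to 16 h, precipitated with the dRING antibody Q3200, and each had an input library of its own from the same kind of embryos. Whole embryos hold every tissue, so a region cannot be assigned to a cell type, and the labels do not say if the replicates came from separate embryo collections. Positions are those of FlyBase release 5. Neither a genome sequence nor a gene annotation of that release was used here, so regions are named by position and not by gene, and no sequence is shown.

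dRING, encoded by Sex combs extra, is a RING-finger protein that ubiquitinates histone H2A as part of Polycomb repressive complex 1. In flies this complex is brought to Polycomb response elements, short stretches of DNA bound by sequence-specific factors, and it can spread from them over developmental genes that are kept silent. Among the X-linked genes known from other work as Polycomb targets are the polyhomeotic locus, which itself encodes subunits of the complex, and the achaete-scute genes, which select neural precursors.

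The regions seen in both libraries made up 30.7% of the X regions of the series list (exact binomial 95% interval 28.4 to 33.0%, counting error only), where 28.4% of the regions of all 6 arms and 27.7% of those on 2L, 2R, 3L and 3R were seen in both. They covered 1.75 Mb, which was 50.1% of the listed bases of X and 7.82% of the arm. Of the X regions left out, 207 met a cluster of replicate 1 only, 147 met one of replicate 2 only and 771 met none. The overlap chose the regions, so these shares are a description and were not tested. Read counts are not part of the lists, and the depth behind an interval is unknown.

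Most of the regions were met well inside their borders, and few sat at the edge of the rule. The median region was 94.2% covered by clusters of replicate 1 and 90.7% covered by those of replicate 2, and 45 of the 498 were less than 50% covered in at least 1 library. The region kept by the smallest overlap ran from 9602782 to 9605193, with 111 bp (4.60%) under a replicate 1 cluster and 66.7% under a replicate 2 cluster. Just outside the rule stood the region from 17752914 to 17754853, which replicate 2 covered entirely and from which the nearest replicate 1 cluster was 121 bp away. The region from 4509046 to 4510209 also missed it by little, lying inside a replicate 1 cluster of score 1.84 and 145 bp from the nearest replicate 2 cluster.

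The regions were spread over almost the whole arm and thinned out toward its end, where X approaches the centromere. The first ran from 139170 to 142627 and the last from 22255984 to 22258180, 165 kb before the end of the 22.4 Mb arm. In bins of 1 Mb, the median count was 23 regions (quartiles 17.5 and 27.5). The fullest bins were those from 1 to 2 Mb and from 8 to 9 Mb, with 33 regions each. The bin from 8 to 9 Mb also held the most covered bases, 147 kb, ahead of the bin from 17 to 18 Mb with 130 kb. Between 1 and 21 Mb no bin held fewer than 14, the count from 14 to 15 Mb.

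From 21 to 22 Mb the count was 5, and 2 regions lay in the last, incomplete bin. The whole series list was thinner there too, with 29 and 4 regions in these bins and 45 to 116 in the others. The widest interval without a region, from 21247747 to 21915996, was 668 kb and held 13 X regions that were not seen in both libraries. The next widest, between 15707399 and 15984592, was 277 kb.

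**Figure D1:**
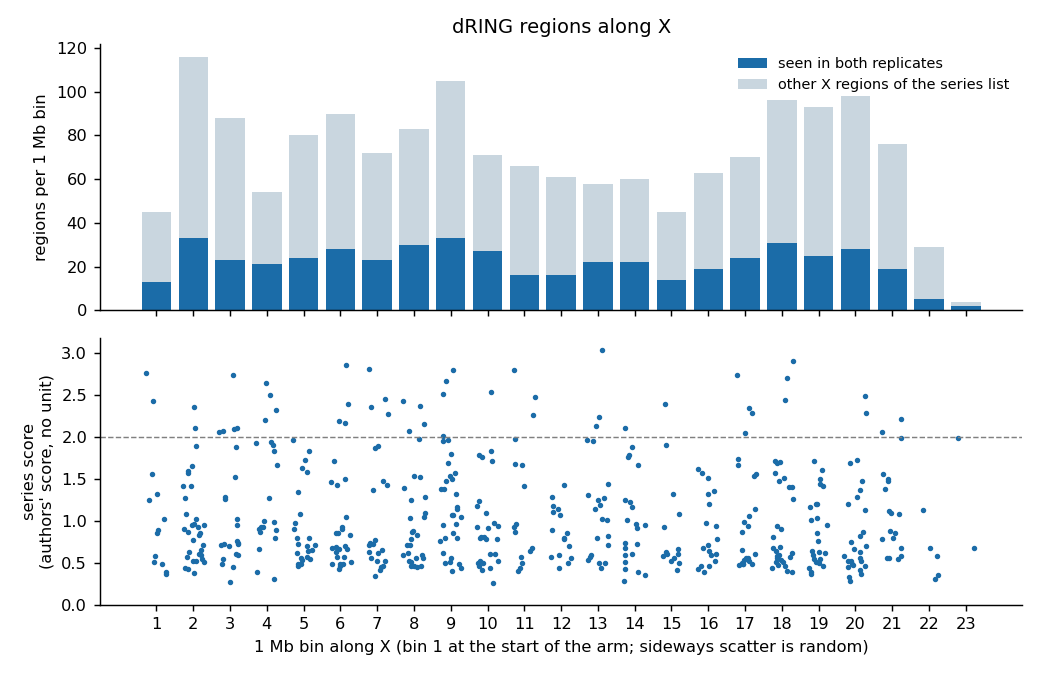
Top, number of dRING regions in each 1 Mb bin along X, split into regions seen in both replicates (dark) and all other X regions of the series list (light); bottom, the authors' series score, which has no unit, of each of the 498 regions by bin, with a dashed line at a score of 2. Counts are highest, at 33, in bins 2 and 9 and fall to 5 and 2 in bins 22 and 23, while scores of 2 or more occur in 17 of the 23 bins.

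Spacing was very uneven. The median gap between neighbouring regions was 19.2 kb, with quartiles of 6.31 and 50.3 kb. It was 14.4 kb among regions seen in replicate 2 with replicate 1 not required, and 11.9 kb with replicate 2 not required. Of the 497 gaps, 32 were shorter than 1 kb and the shortest was 18 bp, while 60 were longer than 100 kb and 14 longer than 200 kb.

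Joining regions less than 10 kb apart gave 324 groups. Of these, 218 were regions standing alone, 69 were pairs and 24 were triplets, and the other 13 held 4 to 8 regions each. The 106 groups of 2 or more held 280 regions (56.2%) and 62.0% of the covered bases. On 2L, 2R, 3L and 3R together, 784 of 1587 regions (49.4%) lay in such groups. By arm the share was 54.2% on 3R, 52.4% on 2R, 45.7% on 2L and 43.1% on 3L.

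The most common form was a narrow site a little over 2 kb long. The median length was 2629 bp (quartiles 2157 and 3963 bp), and 127 regions fell in the 250 bp step from 2000 to 2249 bp alone, followed by 69 from 2250 to 2499 bp. No region was shorter than 1672 bp, while the shortest cluster on the 6 arms was 1301 bp and the shortest region of the series list 1001 bp. At the other end, 15 regions (3.01%) were 10 kb or longer and the longest was 30.5 kb.

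Score went with length up to a point. The series score is the authors' value for each region, with no stated scale, and it is used here to rank and describe. Its median was 0.40 for the 36 regions under 2 kb, 0.85 for the 253 from 2 to 3 kb, 0.94 for the 135 from 3 to 5 kb, 1.04 for the 59 from 5 to 10 kb and 1.48 for the 15 of 10 kb or longer. No region under 2 kb scored above 0.59. The longest regions never held the highest series scores either. Scores of 2 or more were reached by 25 regions from 2 to 3 kb, 16 from 3 to 5 kb and 8 from 5 to 10 kb. They were reached by 0 of the 15 long regions, whose scores ran from 0.80 to 1.88. The share over all 498 regions was 9.84%, so 15 regions are few to judge by. On 2L, 2R, 3L and 3R, 0 of the 89 regions of 10 kb or longer reached a series score of 2, so this was not particular to X. It holds for the series score of a whole region, and single clusters inside long X regions could score higher. From 17653287 to 17667116 the highest cluster had 2.04 in replicate 1 and 2.82 in replicate 2. From 8526061 to 8541808 these scores were 0.91 and 0.88. Across the 498 regions Spearman's rho of length and score was 0.40, a description over places that share the same libraries.

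**Figure D2:**
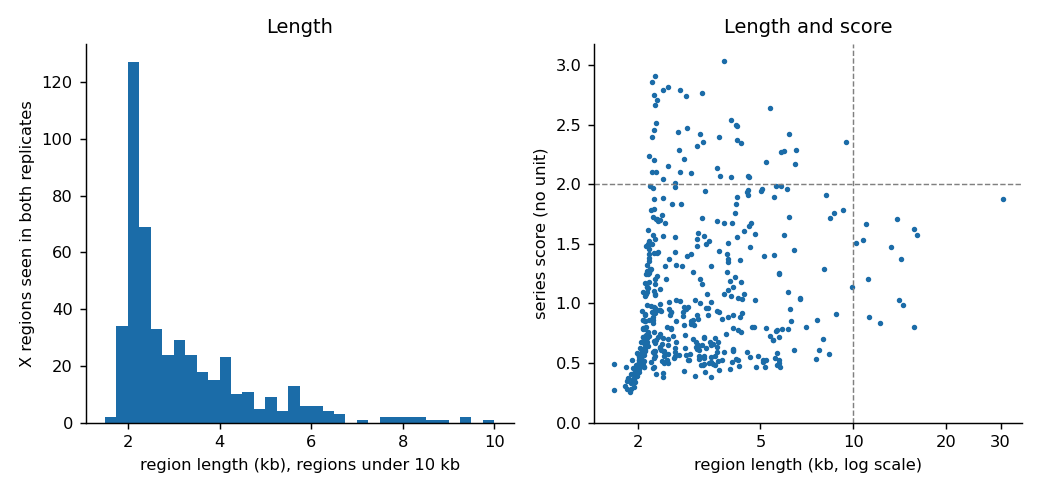
Left, lengths in kb of the X regions under 10 kb that were seen in both replicates, in steps of 0.25 kb; right, the authors' series score (no unit) of all 498 against length on a log axis, with dashed lines at a score of 2 and at 10 kb. The 250 bp step starting at 2 kb holds 127 regions, and no point lies both right of 10 kb and above a score of 2.

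The strongest site on X ran from 12356665 to 12360485, with a series score of 3.04. Its cluster score was 2.36 in replicate 1 and 3.62 in replicate 2, and replicate 2 placed it higher than any other X region. The mean was 2.99 ± 0.89 (SD, n = 2). Such an SD over the 2 lists takes in any difference in scale between them. The libraries ranked the next one differently: the site from 17911756 to 17914038 had 2.85 in replicate 1, the highest of that library on X, and 3.06 in replicate 2 (2.95 ± 0.15, SD, n = 2). Both sites had a neighbour within 10 kb.

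The next 3 sites were narrow and close to each other in strength within each library. The site from 5663754 to 5665973 had cluster scores of 2.53 in replicate 1 and 3.24 in replicate 2. The site from 6442589 to 6445096 had 2.48 and 3.19, and that from 8394616 to 8397369 had 2.55 and 3.08, in the same order of libraries. In each of the 3 replicate 2 gave the higher score.

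The libraries differed most at the site from 10136541 to 10138949, which scored 1.81 in replicate 1 and 3.55 in replicate 2 (2.68 ± 1.23, SD, n = 2). The difference of 1.74 was the largest of all 498 regions. The site from 579693 to 582930 had 2.45 in replicate 1 and 3.12 in replicate 2, and lay 68.8 kb from its nearest neighbour, the farthest of the 12 highest. These sites stood apart from other regions by more than 10 kb, as did those from 8394616 and from 17956308.

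The remaining sites of the 12 highest had series scores of 2.64 to 2.74. The site from 16563790 to 16566054 had 2.48 in replicate 1 and 3.04 in replicate 2, and 19 bp after it came another region, from 16566074 to 16568225, of only 0.93 and 1.40. The site from 2535817 to 2538691, with 2.47 and 3.09, had neighbours on both sides. The region 393 bp after it, from 2539085 to 2542501, had 1.19 and 2.23 and a series score of 1.53. The region 3.65 kb before it, from 2527563 to 2532164, had 1.85 and 2.36 and a series score of 2.06. The sites from 17956308 to 17958619 (2.50 and 3.04), from 8960919 to 8963190 (2.37 and 3.04) and from 3181369 to 3186753 (2.35 and 2.96) completed the 12. All 12 were single clusters in each library, were 2.22 to 5.39 kb long and were at least 97.1% covered in replicate 1 and 96.9% in replicate 2.

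Strong sites were found along most of the arm. A score of 2 or more was reached by 49 of the 498 regions (9.84%), against 95 of 1587 regions (5.99%) seen in both libraries on arms 2L, 2R, 3L and 3R. By arm the share was 8.50% on 2R, 6.59% on 3L, 5.73% on 3R and 3.18% on 2L, so 2R was close to X and inside its exact 95% interval of 7.37 to 12.8%. The strong sites of X fell in 17 of the 23 bins, most often, with 5, from 2 to 3 Mb. None lay from 4 to 5, 11 to 12, 15 to 16 or 18 to 19 Mb, nor in the last 2 bins. Of the 49, 15 stood alone (30.6%), against 203 of the 449 lower-scoring regions (45.2%), and 46 were a single cluster in each library. Across all 498 regions the link was weak: Spearman's rho of score and distance to the nearest other region was -0.10, a description.

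The widest region ran from 2012284 to 2042816, 30.5 kb against 16.1 kb for the next on X, and both libraries filled it. Replicate 1 covered 97.2% of it, almost all with a cluster of 28.3 kb and score 2.02. Replicate 2 covered 94.6%, chiefly with neighbouring clusters of 12.6 kb (score 1.99) and 14.9 kb (score 1.68). The highest scores of the libraries differed by only 0.03 here, and the region was flanked on either side by a weak one, of series score 0.27 and 0.48.

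In the other wide regions replicate 1 marked most of the length and replicate 2 a shorter stretch, often of higher score. From 8688217 to 8704326, replicate 1 had a cluster of 11.9 kb with score 1.62, and inside it replicate 2 had a cluster of 5.38 kb with score 2.74. From 4313343 to 4329119 the corresponding clusters were 12.2 kb with score 1.84 in replicate 1 and 5.43 kb with score 2.53 in replicate 2. From 17653287 to 17667116 they were 9.18 kb with 2.04 and 4.57 kb with 2.82, and from 8541827 to 8556092 they were 9.81 kb with 1.67 and 3.27 kb with 2.37. In each of these 4 the replicate 2 cluster was the shorter and the higher in score.

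The same held for 20555247 to 20568459, where a replicate 1 cluster of 13.2 kb and score 1.43 met 4 clusters of replicate 2, the highest being 4.75 kb with score 2.31. From 18134623 to 18145747 the main clusters had almost the same length, 4.15 kb with 1.75 in replicate 1 and 4.29 kb with 2.25 in replicate 2. The scores were much closer in the 5 remaining of the 12 widest. From 8526061 to 8541808, a replicate 1 cluster of 15.6 kb and score 0.91 was met by 4 replicate 2 clusters of 0.58 to 0.88. The highest scores of replicate 1 and replicate 2 were 1.15 and 1.23 from 3692336 to 3706781 and 1.37 and 1.52 from 477727 to 491743. They were 1.04 and 1.29 from 5887514 to 5899687, and 1.17 and 1.22 from 499667 to 510907. Replicate 2 covered 27.6 to 62.4% of these 5 and replicate 1 88.5 to 99.3%.

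The mean cover of the 15 X regions of 10 kb or longer was 88.9% by replicate 1 and 56.9% by replicate 2. Replicate 1 minus replicate 2 was 32.0 ± 19.9 percentage points (SD, n = 15 regions), and it was positive in 14 of them. For the 483 regions under 10 kb the mean cover was 86.5% by replicate 1 and 84.2% by replicate 2, 2.27 ± 16.4 points apart. The wide regions had been chosen by their length, and this contrast was not tested.

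Of the 12 widest regions, 8 lay in the 6 groups that covered the most bases. The group from 17632077 to 17700090 was the largest: 8 regions covered 50.1 kb of its 68.0 kb. Its scores were 1.51 to 1.71 in the 3 strongest regions and 0.48 to 0.64 in the 5 others, so regions of higher and lower score stood side by side within it. Clusters of replicate 1 covered 66.7% of the span and those of replicate 2 38.1%.

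The second group, from 8514478 to 8556092, was the most continuous of these 6, with 39.9 kb of its 41.6 kb in 3 regions whose inner gaps were 1.72 kb and 18 bp. Replicate 1 covered 89.8% of this span and replicate 2 55.3%. The third, from 2004811 to 2054796, consisted of the widest region with its weak flanks, and here the libraries covered the span about alike, at 70.2% and 68.5%. The group from 3665834 to 3706781 had its strongest region, of series score 1.91, near one end and a pair of wide regions of lower score, 0.86 and 0.99, at the other.

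In the group from 477727 to 510907 no region scored above 1.03, and replicate 2 covered 33.7% of the span against 82.3% in replicate 1. The group from 4292903 to 4333836 held 2 regions of higher score, 1.96 over 5.06 kb and 1.63 over 15.8 kb, with a region of 0.48 between them. The group from 12607406 to 12660434, which ranked seventh by covered bases, was of another kind: 8 regions of 2.03 to 5.74 kb, each a single cluster in both libraries, with series scores of 0.49 to 2.24. Replicate 2 covered slightly more of this span than replicate 1, 49.0% and 45.2%. It is named here after its values were seen.

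**Figure D3:**
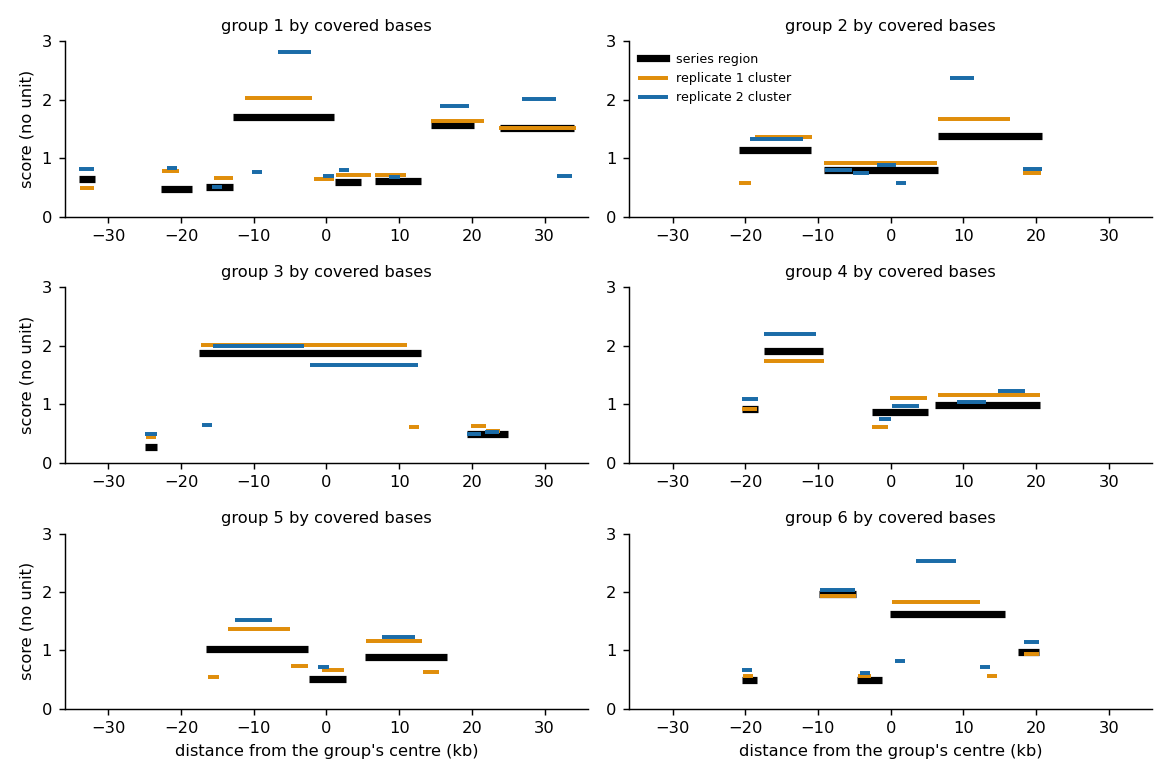
The 6 groups of neighbouring X regions with the most covered bases, each drawn by distance in kb from the group's centre, with the score (no unit) of each series region (black) and of the replicate 1 (orange) and replicate 2 (blue) clusters that overlap it. In groups 1, 2 and 6 a short blue bar stands above a longer orange bar in the widest or strongest region, whereas in group 3 the blue and orange bars lie near a score of 2 over most of the 30.5 kb region.

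Where each library held a single cluster, as at 440 of the 498 regions (88.4%), the libraries placed it at nearly the same position. The rule had kept only regions that clusters of both libraries overlap, which favours close positions. The distances are therefore a description and were not tested. The centres of the clusters were a median of 50 bp apart (quartiles 19.4 and 198 bp), 277 of 440 lay within 100 bp and 14 more than 1 kb apart. The starts differed by a median of 57.5 bp and the ends by 51 bp, and the median signed difference, replicate 2 minus replicate 1, was -3 bp at the start and -3.5 bp at the end. The starts were spread about evenly to either side, with quartiles of -58 and 54.8 bp, and the ends reached further to the early side in replicate 2, with quartiles of -70 and 43 bp. Of the other 58 regions, 17 were split by replicate 1 only, 25 by replicate 2 only and 16 by both.

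Positions matched most closely at the strongest sites. Among the 110 regions with the highest series scores of these 440 the centres were a median of 23 bp apart and 89 lay within 100 bp. Among the 110 with the lowest scores the median was 113 bp and 50 lay within 100 bp. The shift was small against the cluster lengths, whose medians were 2137 bp in replicate 1 and 2158 bp in replicate 2.

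Replicate 2 gave the higher score at most X regions, and by more at strong ones. It did so at 398 of the 498 regions (79.9%), where the share over 2L, 2R, 3L and 3R was 76.1%. The median highest cluster score was 0.84 in replicate 1 and 1.03 in replicate 2, and the median difference, replicate 2 minus replicate 1, was 0.20 (quartiles 0.04 and 0.45). At the 49 regions with a series score of 2 or more replicate 2 was higher in all 49, by a median of 0.54. These 49 were picked by the series score, and how that score draws on the 2 libraries is not known. The largest differences the other way were found from 19437358 to 19445400, with 1.89 in replicate 1 and 1.46 in replicate 2, and from 10708914 to 10713578, with 2.39 and 1.98. No source used here says whether the lists share a scale, so the differences describe the lists. The order of the regions was much alike in both, with a Spearman's rho of 0.86 across the 498 regions, given as a description because regions are not replicates.

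**Figure D4:**
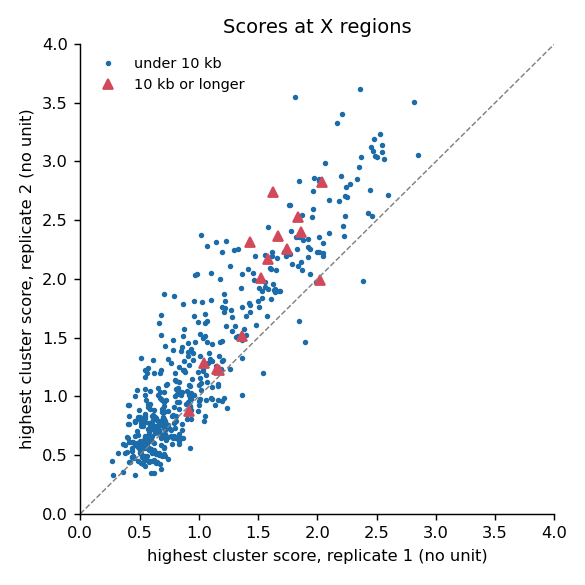
Highest cluster score (no unit) in replicate 2 against replicate 1 for the 498 X regions, with regions of 10 kb or longer as triangles and a dashed line of equal scores. Points lie above the line at 398 regions, and most triangles lie above it too.

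X was compared with the other large arms for number, strength and width. Regions seen in both libraries were densest on X, at 22.2 per Mb, against 18.8 on 3R, 16.7 on 2R, 15.0 on 2L and 14.8 on 3L. X held 23.7% of such regions (exact 95% interval 21.9 to 25.6%) on 18.6% of the arm length. It also held 22.0% of all regions of the series list (21.03 to 22.9%), at 72.4 per Mb against 54.7 to 63.6 on the 4 arms, so most of the excess over its length was that of the whole list. The density was also highest on X in each library's own list, at 33.2 clusters per Mb in replicate 1, against 25.1 to 31.8 on the 4 arms, and 31.3 in replicate 2, against 21.4 to 27.3. In covered bases X was second, with 7.82% of the arm against 8.20% on 3R and 5.49 to 6.64% on the other 3.

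Scores on X were higher in all 3 lists. The median series score was 0.86 on X and 0.64 on the 4 arms together, a difference of 0.22. It was 0.13 among regions seen in replicate 2 with replicate 1 not required, and 0.14 with replicate 2 not required. The median of the highest cluster score was 0.84 on X and 0.68 elsewhere in replicate 1, and 1.03 on X and 0.78 elsewhere in replicate 2. The difference reached beyond the regions seen in both libraries: the X regions of the series list that failed the rule had a median of 0.46, against 0.38 for those of the 4 arms. That median needs caution, because 771 of these 1125 X regions met no cluster and 567 held an exactly recurring score. All clusters of replicate 1 had a median of 0.71 on X and 0.57 elsewhere, and those of replicate 2 had 0.83 and 0.67. The X-minus-arms difference over all clusters was thus 0.14 in replicate 1 and 0.16 in replicate 2, a mean of 0.15 ± 0.01 (SD, n = 2 libraries). Both libraries had the higher median on X, and an exact two-sided permutation test that flips the sign of each library's difference gave p = 0.5, the smallest that n = 2 allows.

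Width went the other way. Of the regions on X, 15 of 498 (3.01%, exact 95% interval 1.70 to 4.92%) were 10 kb or longer, against 89 of 1587 (5.61%, 4.53 to 6.86%) on the 4 arms. The 4 arms were not alike in this: the share was 3.02% on 3L, about that of X, 5.10% on 2R, 6.07% on 2L and 7.44% on 3R. The longest region on X, of 30.5 kb, was shorter than the longest of each of these arms, which ran from 31.9 to 95.6 kb, and the highest series score on X, 3.04, was below the highest of each, 3.19 to 4.07. Median lengths were close, 2629 bp on X and 2575 bp on the 4 arms. The exact intervals treat neighbouring regions as independent.

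**Figure D5:**
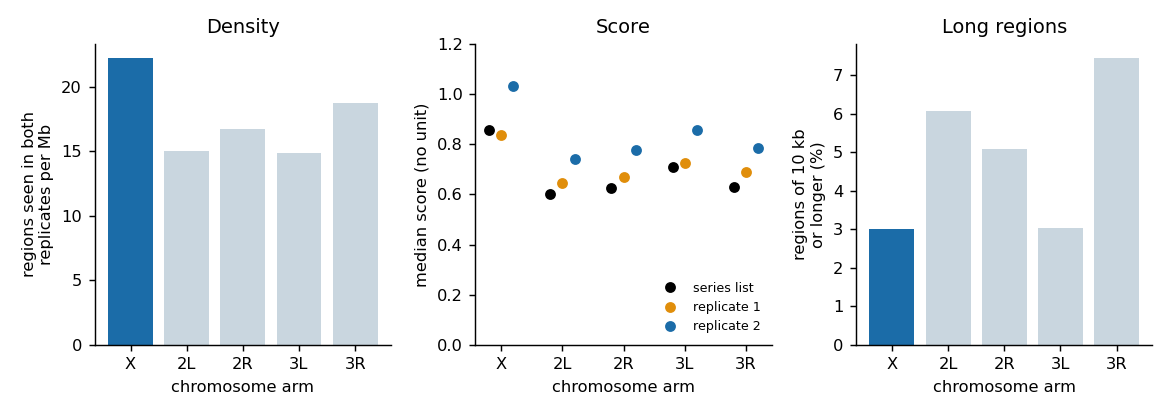
Regions seen in both replicates on X (dark bars) and on 2L, 2R, 3L and 3R (light bars): left, regions per Mb of arm; middle, median series score and median highest cluster score of each replicate (no unit); right, percent of regions of 10 kb or longer. X has the highest density, 22.2 per Mb, and the highest median in each list, while its 3.01% of long regions is close to 3L and below the other 3 arms.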

How the data were processed

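Enriched intervals of 2 dRING ChIP libraries and of the whole series were used; the 2 input libraries served in making the replicate lists, per the labels, and have no values of their own here. Each interval carries the authors' deposited score, of no stated scale. Per the file headers, positions refer to FlyBase release 5. The submitters' processing notes name Bowtie 0.12.7. What called the regions, at which threshold, and how the series list was built is not given in the sources used.

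The software was Python 3.11.15, scipy 1.17.1 (exact intervals, Spearman's rho), numpy 2.4.6 and, for figures, matplotlib 3.10.9. All positions count from 1. Where a region held several clusters of a replicate, the highest score was used. The overlap procedure was tested on 20 simulated cluster lists over the 1623 X regions and gave the planted or pairwise answer in all 20. Named regions are the 12 highest scores, the 12 longest, the 6 groups with the most bases, the first and last, the widest gap and those at the edge of the rule; other regions named are neighbours of these, the largest differences against the trend, or, for the seventh group, chosen after its values were seen. The members and this rule were chosen with earlier results of these data known. Planned gene and motif counts were not made, because coordinates of the gene table at hand belong to another release. The rule uses the interval lists themselves, so counts and scores of the members were described and not tested. The difference between X and the 4 arms in each library was tested by an exact sign-flip permutation over the 2 libraries, added after seeing the data, which cannot reach 0.05. Alternatives were 50% cover, clusters or regions above the median score, merging below 1 kb, either replicate alone, other group gaps (5 and 20 kb), length-weighted scores, and subsets by cluster number or length.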

Additional observations from a re-analysis of the deposited data

How the results depend on the processing

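Of 58 recomputed values of 12 results, 30 stayed within the replicate spread, the exact interval or, for counts, 1.5 times, and none changed direction. For the differences between replicates in score and in cover, that spread came from the gap between the same 2 libraries. Staying within it therefore says little, and the median series score was judged by the same score gap. The mean cover difference, 3.16 points in the main setting, was 1.34 for regions with 1 cluster in each replicate and 2.27 for regions under 10 kb. The number of regions, between 336 and 705, and of groups, between 237 and 383, stayed within 1.5 times. The others moved as follows. With 50% cover by each replicate the share of X regions was 27.9%, with 1.51 Mb covered, a median length of 2446 bp and a median gap of 22.0 kb. With clusters above their list's median score these were 20.7%, 1.33 Mb, 3001.5 bp and 26.5 kb, and the median score was 1.17. With series regions above the median score the share was 37.9% and the median length 2718.5 bp. Merging regions less than 1 kb apart gave 35.2%, 2.10 Mb, 3170 bp and 20.6 kb. With either replicate alone the share was 39.7 to 43.4%, the bases 2.04 to 2.17 Mb, the length 2302 to 2355 bp, the gap 11.9 to 14.4 kb and the score 0.62 to 0.65. X then held 21.8 to 23.5% of such regions, and its median score exceeded that of the 4 arms by 0.13 to 0.14. These settings choose other regions by construction. No paired analysis was possible because the inputs have no values here, and the sign-flip tests over libraries already take their differences within each library. Depth is unknown, so a place missing from a list may have been too thinly sequenced to be called.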

Other observations

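Most X regions that failed the rule had low series scores, but a few did not. Of the 771 X regions met by neither library, 442 were shorter than the shortest cluster of 1301 bp, and 4 had a series score above the median of the regions seen in both. The highest of these ran from 21774864 to 21775871, 1008 bp long, with a score of 2.64. It lay in the 668 kb interval without a region seen in both libraries, and its score was equal, to the last digit deposited, to that of the region from 3181369 to 3186753, one of the 12 highest seen in both. Exactly recurring scores were held by 567 of the 1125 X regions that failed the rule and by 35 of the 498 that met it. Next among the 4 came the region from 20248981 to 20249981, with 1.28, and then that from 21608789 to 21609824, with 1.25, which was also a recurring score. The last, from 20956965 to 20957965, had 0.857573, barely above the median of 0.857251. All 4 were 1001 to 1036 bp long, shorter than the shortest cluster.

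In the single libraries, 230 of 744 X clusters of replicate 1 and 165 of 702 of replicate 2 did not overlap the other list. The highest unshared score was 1.55 in replicate 1, from 9044377 to 9045749, and 1.30 in replicate 2, from 14898004 to 14899346. On XHet, the heterochromatic sequence of X that was kept apart from the arm, the series list held 1 region, from 46123 to 48062, with a score of 0.31. Replicate 2 had 1 cluster there, with 0.44, and replicate 1 had 0.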
